A study of Mus musculus with 11 samples.

Results

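The insulin-like growth factor (IGF) family was followed through 9 genes, the ligands Igf1 and Igf2, the receptor Igf1r, and the binding proteins Igfbp2, Igfbp3, Igfbp4, Igfbp5, Igfbp6 and Igfbp7, in periostin-lineage cells of the mouse mammary gland. They were taken by name from the deposited table and each had 1 probe, so the family makes up 9 of the 19962 genes, read by 19965 endogenous probes. Barcoded probes were hybridised to fixed frozen sections (GeoMx digital spatial profiling), and cells positive for ZsGreen, a reporter of present or past periostin expression, were collected from regions chosen by staining. The 11 regions analysed comprised 6 labelled Pdpn-adjacent (regions 2, 3, 4, 7, 8 and 11), chosen beside podoplanin-stained lymphatic vessels, and 5 labelled SMA-adjacent (regions 1, 5, 6, 9 and 10), chosen beside blood vessels and ducts stained for smooth muscle actin. All came from naive glands of periostin lineage tracing mice, 3 animals in all, with no treatment. The labels give no strain, age or sex and do not say which animal a region came from. With more regions than animals in each group, some regions have an animal in common, so every p-value over regions is liable to be too small.

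IGF1 and IGF2 are secreted peptides that signal through the receptor tyrosine kinase encoded by Igf1r. The binding proteins hold the ligands in tissue fluid and matrix, and proteases release them, so that the local supply depends on ligands, binding proteins and proteases together. In the mouse mammary gland, stromal IGF1 acts downstream of growth hormone in the growth of ducts, and IGFBP5 is known for its rise in the epithelium during involution after lactation.

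Depth differed widely. The Pdpn-adjacent regions held 22757 to 2271664 endogenous counts with a median of 153818, and the SMA-adjacent regions held 760761 to 3086323 with a median of 2048781. Regions 2, 3 and 11, all Pdpn-adjacent, held under 100000 counts each, and in region 2 all 9 genes stood at a count of 1, the table's minimum. Levels below are counts divided by the geometric mean of the 210 negative-control probes of the same region (times background), and a gene is called above the floor where its log2 count exceeds that of the negative probes (their mean) by over 2 SDs. Acta2, which encodes smooth muscle actin, was lower in all 6 Pdpn-adjacent regions (0.952 to 10.0 times background) than in any SMA-adjacent one (12.9 to 87.5 times), but Pdpn (0.375 to 1.79 against 1.56 to 1.95 times) was above the floor in 0 of 6 Pdpn-adjacent and 0 of 5 SMA-adjacent regions. Postn (0.889 to 4.09 against 1.84 to 5.13 times) was above it in 2 of 6 and 2 of 5. Regions and cells were chosen by these stains and the Postn reporter, so the 3 genes check the labels only. Fibroblast markers were above 2 times background at the median in 5 of 8 genes in Pdpn-adjacent and 7 of 8 in SMA-adjacent regions, those of lymphatic endothelium in 0 of 5 in either group, and those of adipocytes in 4 of 5 in either group.

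Igfbp4 and Igfbp7 were the most abundant family probes, followed by Igfbp5 and Igf1, while Igf2 and Igfbp2 were close to background. Over the 8 regions with more than 100000 counts, median levels were 8.33 times background for Igfbp4, 8.20 for Igfbp7, 3.97 for Igfbp5, 2.91 for Igf1, 2.10 for Igfbp3, 1.37 for Igf1r, 1.37 for Igfbp6, 1.35 for Igf2 and 0.973 for Igfbp2. Within a region, Igfbp7 exceeded Igfbp5 in 8 of 8, with a mean difference of 1.21 ± 0.60 on the log2 scale (SD, n = 8). Igfbp5 exceeded Igf1 in 7 of 8 and Igf1 exceeded Igfbp3 in 7 of 8, both by a mean beyond its SD. Neighbours whose mean difference lay within its SD were Igfbp4 and Igfbp7, Igfbp3 and Igf1r, Igf1r and Igfbp6, and Igfbp6 and Igf2. Each gene was read by 1 probe of 35 to 40 bases, and probes can differ in how well they hybridise, so this is an order of probe signals.

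**Figure D1:**
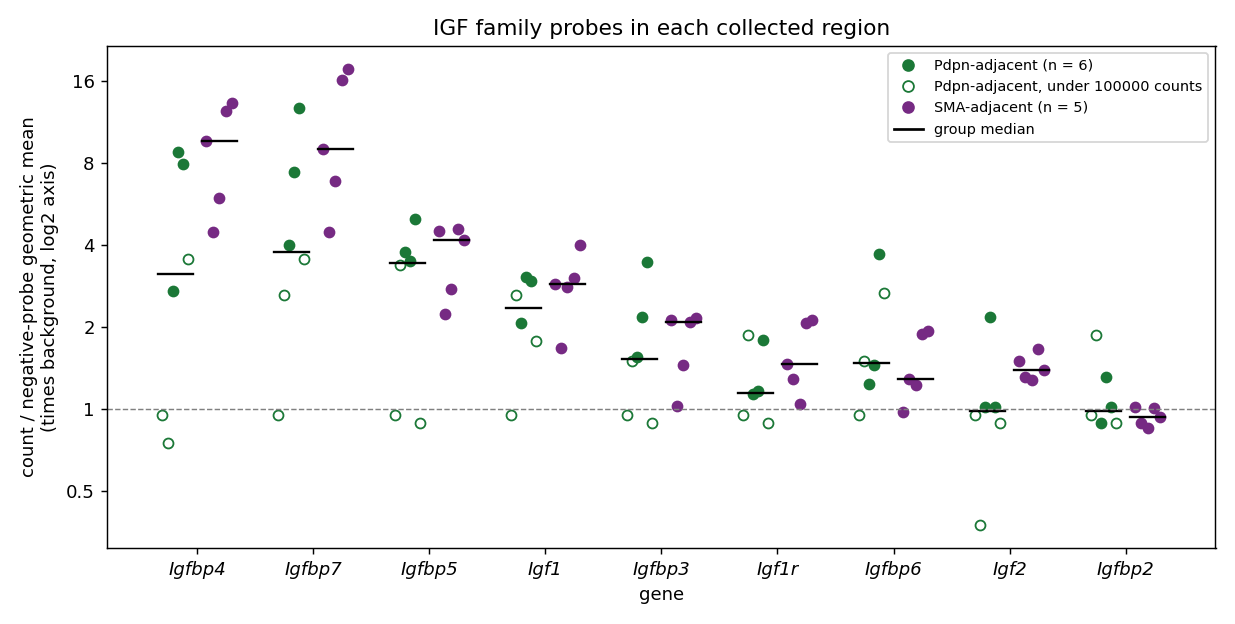
Count divided by the negative-probe geometric mean (times background, log2 axis) for each of the 9 genes, with 1 point per region, Pdpn-adjacent (n = 6) left of SMA-adjacent (n = 5), open points for regions under 100000 counts, and a bar at each group's median. Igfbp4 and Igfbp7 reached 8.73 and 12.6 times background among Pdpn-adjacent regions, 13.3 and 17.7 times among SMA-adjacent ones, and Igfbp2 stayed within 0.856 to 1.88 times.

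Between the groups, none of the 9 genes was called higher or lower. The quasi-likelihood test of edgeR with Benjamini-Hochberg adjustment over 19935 probes called 0 of the 9, against 0.0100% of all probes (2 probes, both higher). DESeq2 gave an adjusted p for only 2927 of the 19935 probes, 4 of the 9 genes among them, and called 0 of those 4 against 0.581% of the 2927. The limma-voom fit called 0 of the 9 and 0 of all probes. Acta2, which separated the groups in every region, was not called by edgeR either (log2 fold change -2.77 ± 0.70, SE; adjusted p = 0.205). Before adjustment, with p under 0.05, edgeR had 1 member lower (Igfbp4) and 0 higher, against 3.19% and 2.84% of all probes. DESeq2 had 2 lower (Igfbp4 and Igfbp7), against 1.26% of all probes, and limma-voom 1 higher (Igfbp6), against 14.9%. The median log2 fold change (Pdpn-adjacent over SMA-adjacent) was -0.20 over the 9 genes and 0.01 over all probes tested. In 0 of 9 genes did every Pdpn-adjacent region lie below, or above, every SMA-adjacent one, against 0.446% and 0.120% of all probes. In such bulk collections, fewer cells of a type and less RNA per cell cannot be told apart.

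Of the ligands, Igf1 was above the floor in 2 of 6 Pdpn-adjacent and 4 of 5 SMA-adjacent regions. Its level was 0.952 at the lowest, 2.35 at the median and 3.06 at the highest times background in Pdpn-adjacent regions, and 2.87, 1.68, 2.80, 3.02 and 4.01 times in SMA-adjacent regions 1, 5, 6, 9 and 10. The Pdpn-adjacent regions above the floor were 8, with 23 counts, and 11, with 2 counts against a floor of 1.98. In region 11, 22.4% of all probes passed that floor. Region 7, at 3.06 times background, was below its own floor. The groups overlapped, with 5 of 6 Pdpn-adjacent regions inside the SMA-adjacent range (edgeR log2 fold change -0.20 ± 0.21, SE; adjusted p = 1.00). Region 10 was the highest and region 2, at a count of 1, the lowest.

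Igf2, the imprinted growth factor of fetal life, was above the floor in 0 of 6 Pdpn-adjacent and 0 of 5 SMA-adjacent regions. It ran from 0.375 through a median of 0.984 to 2.18 times background in Pdpn-adjacent regions and was 1.50, 1.31, 1.28, 1.67 and 1.40 times background in SMA-adjacent regions 1, 5, 6, 9 and 10. The SMA-adjacent values lay close together (1.43 ± 0.16, SD, n = 5), and 5 of 6 Pdpn-adjacent regions fell below all of them while region 7 lay above. The log2 fold change was -0.32 ± 0.19 SE (edgeR adjusted p = 0.923), and the exact two-sided permutation p on log2 times background was 0.141 (adjusted p = 0.782 over all probes). Without region 7, the other 5 Pdpn-adjacent regions all lay below the SMA-adjacent range, as did 0.952% of all probes. The log2 difference was then -0.83 (exact permutation p = 0.00794, adjusted p = 0.578) and the edgeR log2 fold change -0.50 ± 0.16 SE (adjusted p = 0.539). Region 7 was singled out by its own Igf2 value, so that separation followed from the choice and is no support for a difference. Regions 2, 3 and 11 each held an Igf2 count of 1. Without these 3 regions, and with region 7 kept, the log2 difference was -0.12 (exact permutation p = 0.732).

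The receptor gene Igf1r was above the floor in 0 of 6 Pdpn-adjacent and 2 of 5 SMA-adjacent regions. Its level was 0.889 at the lowest, 1.15 at the median and 1.88 at the highest times background in Pdpn-adjacent regions, and 1.46, 1.29, 1.04, 2.07 and 2.13 times in SMA-adjacent regions 1, 5, 6, 9 and 10. Regions 9 and 10 were the only ones above 2 times (edgeR log2 fold change -0.30 ± 0.20, SE; adjusted p = 0.936).

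Igfbp4 encodes a secreted inhibitor of IGF action that the protease PAPP-A cleaves. Its probe lies on chromosome 11, 99041791 to 99041825, within the gene (99040005 to 99052655; GRCm38.p6). Igfbp7 encodes a related protein of low affinity for IGFs that is found around blood vessels, and its probe lies on chromosome 5, 77355614 to 77355648, within the gene (77349240 to 77408045). The promoters of this pair are shown because these were the highest family members and varied together between regions. Each window runs 5′ to 3′ from 250 bases before to 50 after a listed promoter start on GRCm38.p6. The windows are chr11:99040994-99041293 on the plus strand for Igfbp4 and chr5:77407996-77408295 on the minus strand for Igfbp7. The listed Igfbp7 start is the end of its gene span (77408045). The Igfbp4 window lies inside its gene span, so its listed start is not the first base of that span (99040005). Capitals mark matches to a TATA box (TATAAA) or a GC box (GGGCGG), searched on both strands with the CCAAT box (CCAAT), and no matches overlap.
Igfbp4: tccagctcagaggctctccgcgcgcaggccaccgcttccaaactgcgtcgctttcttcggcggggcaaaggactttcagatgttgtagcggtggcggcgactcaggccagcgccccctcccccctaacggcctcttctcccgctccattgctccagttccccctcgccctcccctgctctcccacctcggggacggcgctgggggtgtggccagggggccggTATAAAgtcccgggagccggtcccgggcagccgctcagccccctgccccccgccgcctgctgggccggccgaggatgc
Igfbp7: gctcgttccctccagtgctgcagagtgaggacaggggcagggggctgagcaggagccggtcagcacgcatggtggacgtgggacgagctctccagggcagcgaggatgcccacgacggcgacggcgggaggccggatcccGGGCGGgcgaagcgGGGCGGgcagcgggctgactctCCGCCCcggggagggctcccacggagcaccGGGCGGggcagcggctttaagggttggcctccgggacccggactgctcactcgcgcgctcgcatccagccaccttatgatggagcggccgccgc
The Igfbp4 window holds 1 TATA box, starting 28 bases before its listed promoter start, and no GC box. The Igfbp7 window holds 4 GC boxes, starting 110, 96, 74 and 44 bases before the start, and no TATA box. Of 32851 promoter windows of this length, 13.6% hold the TATA box letters, 35.7% the GC box and 37.4% the CCAAT box. GC content was 71.3% and 73.3%. These are letter matches, not measured binding.

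Igfbp4 was 0.952, 0.750, 2.71, 8.73, 7.92 and 3.56 times background in Pdpn-adjacent regions 2, 3, 4, 7, 8 and 11. The SMA-adjacent regions 1, 5, 6, 9 and 10 had 9.64, 4.44, 5.94, 12.4 and 13.3 times background. Regions 2, 3, 4 and 11 lay below every SMA-adjacent region, and regions 7 and 8 lay inside the SMA-adjacent range. Regions 3 and 11 held only 2 and 4 counts of Igfbp4, for which the exact Poisson 95% intervals, covering counting error only, were 0.0909 to 2.71 and 0.969 to 9.11 times background. In library-scaled counts (CPM), Igfbp4 averaged 129 ± 99.4 (SD, n = 6) beside Pdpn and 277 ± 105 (SD, n = 5) beside SMA. The edgeR log2 fold change was -0.93 ± 0.43 (SE; adjusted p = 0.780), in which deep libraries weigh most. With all regions weighted equally, the log2 difference in times background was -1.59 (exact permutation p = 0.0606, adjusted p = 0.782 over all probes, smallest possible unadjusted p 0.00216). On that scale the median over all probes was -0.14, with 67.2% of probes negative, against 0.02 without regions 2, 3 and 11. Without those 3 regions edgeR put Igfbp4 at -0.60 ± 0.40 SE on the log2 fold scale (adjusted p = 1.00), and the log2 difference was -0.55 (exact permutation p = 0.357), with 1 of 3 Pdpn-adjacent regions, region 4, below the SMA-adjacent range. Over the 20 alternative fits its adjusted p ran from 0.416 to 1.00.

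Igfbp7 was 0.952, 2.63, 4.00, 7.42, 12.6 and 3.56 times background in Pdpn-adjacent regions 2, 3, 4, 7, 8 and 11. The SMA-adjacent regions 1, 5, 6, 9 and 10 had 8.98, 4.44, 6.84, 16.1 and 17.7 times background. The same 4 Pdpn-adjacent regions lay below every SMA-adjacent one, and regions 7 and 8 lay inside their range. CPM averaged 160 ± 106 (SD, n = 6) beside Pdpn and 327 ± 162 (SD, n = 5) beside SMA (edgeR log2 fold change -0.85 ± 0.44, SE; adjusted p = 0.855). The log2 difference in times background was -1.30 (permutation, exact, p = 0.0844). Without regions 2, 3 and 11 the fold change was -0.52 ± 0.43 SE (edgeR adjusted p = 1.00) and the difference -0.40 (exact permutation p = 0.518). Both groups were wide, with the highest SMA-adjacent region at 3.98 times the lowest for Igfbp7 and 2.99 times for Igfbp4. Shared animals can make these p-values too small.

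**Figure D2:**
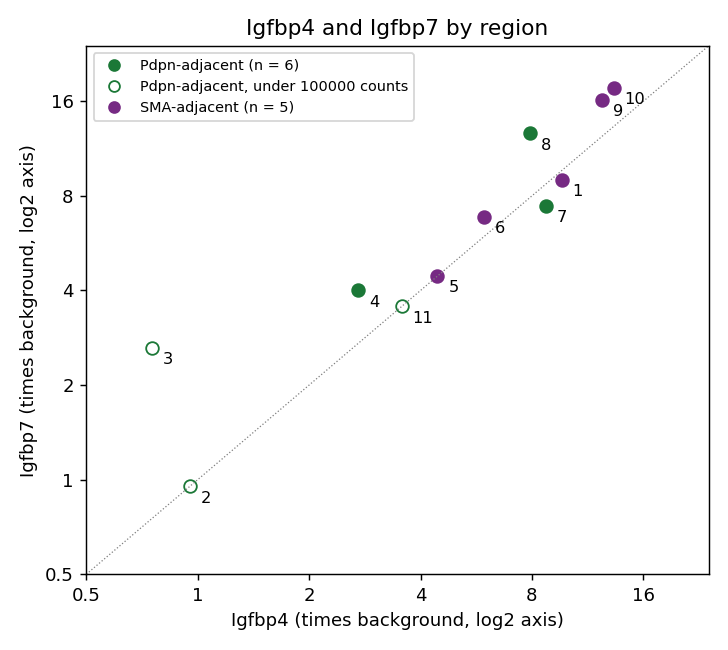
Igfbp7 against Igfbp4, both in times background on log2 axes, with 1 point per region labelled by its number, open points for regions under 100000 counts and a dotted line where both are equal. Regions 9 and 10 are highest on both axes (12.4 and 16.1, 13.3 and 17.7 times background), and regions 2, 3, 4 and 11 lie at the low end.

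The pair's share of the family's counts varied between regions. Igfbp4 and Igfbp7 together made up 36.5%, 52.1% and 52.1% of the summed counts of the 9 probes in Pdpn-adjacent regions 4, 7 and 8. The remaining Pdpn-adjacent libraries 2, 3 and 11, with only 9, 44 and 18 counts over the 9 genes, gave 22.2%, 20.5% and 44.4%. They made up 56.3%, 47.8%, 52.8%, 63.6% and 64.9% in SMA-adjacent regions 1, 5, 6, 9 and 10. Exact Clopper-Pearson 95% intervals, covering counting error only, were 34.0% to 39.1% in region 4, 9.80% to 35.3% in region 3 and 62.7% to 67.1% in region 10. Among the 8 regions above 100000 counts, region 4, the deepest Pdpn-adjacent library, had the lowest share, and it was the only one of them in which Igfbp5 had more counts than Igfbp4 (1.39 times as many, against 0.313 to 0.629 times in the other 7).

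Across the 8 regions above 100000 counts, Igfbp4 and Igfbp7 had a Pearson r of 0.894 in log2 CPM, a description over regions that share mice and differ in background share. Among 1096 probes with a median above 3 times background, the closest patterns to Igfbp4 were those of Ltbp4, a latent TGF-beta binding protein (r = 0.980), Fbln2, the matrix protein fibulin-2 (0.967), Serpinb6a, a serine protease inhibitor (0.946), and Epas1, a hypoxia-inducible transcription factor (0.944). The closest to Igfbp7 were Clu, the chaperone clusterin (0.970), Cfl1, the actin-severing protein cofilin (0.970), Dbp, a circadian transcription factor (0.969), and Actb, cytoplasmic actin (0.967). For Igfbp5 they were Hnrnpa1, an RNA-binding protein (0.941), the ribosomal genes Rpl6 (0.891) and Rpl10a (0.881), and Eef1g, a translation elongation factor (0.877). Igfbp7 ranked as number 25 for Igfbp4, and Igfbp5 as number 578. For Igfbp7, Igfbp4 ranked as number 68 and Igfbp5 as number 458, so many other probes were closer to each of the pair.

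Several cell type marker lists, among them those of fibroblasts, smooth muscle and pericytes, blood endothelium and adipocytes, were lowest and highest in much the same SMA-adjacent regions as the pair. The mean of 8 fibroblast markers was 0.952 to 10.3 times background in the Pdpn-adjacent group, against 6.27 to 19.1 times in the SMA-adjacent group. That of 6 smooth muscle and pericyte markers was 1.27 to 4.97 against 5.51 to 31.1 times, and that of 5 blood endothelial markers 0.952 to 3.58 against 2.13 to 4.79 times. The mean of 5 adipocyte markers was the highest of these, ranging over 1.52 to 85.0 times beside Pdpn and 30.0 to 94.9 times beside SMA. Within the SMA-adjacent group, region 5 was lowest for Igfbp4, Igfbp7 and these 4 lists, and regions 9 and 10 were highest for Igfbp4, Igfbp7 and the smooth muscle, blood endothelial and adipocyte lists. The lymphatic list was likewise lowest in region 5 (1.28 times) and highest in regions 9 and 10 (1.54 and 1.52 times). For macrophage markers region 5 was lowest (2.03 times) and region 10 highest (2.69 times). The order was not particular to these lists, since 8.79% of all probes were above the floor in region 5, and 19.1% and 19.2% in regions 9 and 10. The luminal (1.04 to 3.60 against 1.42 to 1.85 times), basal (0.938 to 5.11 against 1.02 to 1.29 times) and skeletal muscle lists (1.15 to 101 against 1.11 to 12.2 times) had their highest values in Pdpn-adjacent regions. The basal peak was in region 11, from 23 counts over 4 markers, 2 of them at a count of 1. The skeletal muscle peak was in region 3, also under 100000 counts. Regions 2 and 3 stood at 0.952 and 1.88 times background for fibroblast markers, and 0 of the 9 family genes were above the floor in either. The part of these cell types in the values of Igfbp4 and Igfbp7 was not tested.

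**Figure D3:**
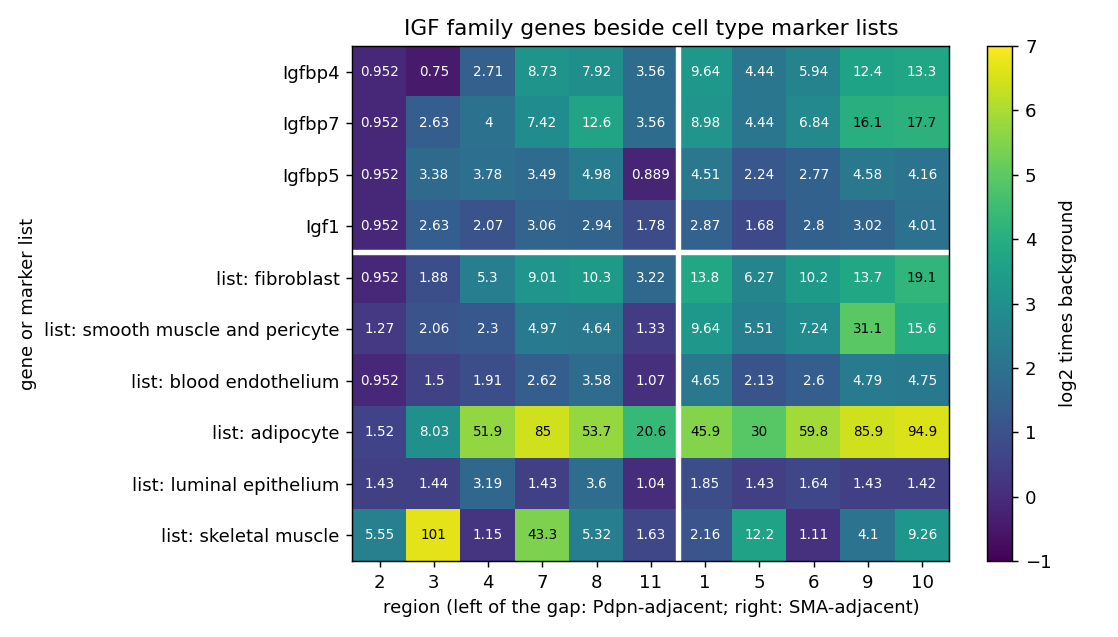
Times background per region (colour on a log2 scale, value printed in each cell) for Igfbp4, Igfbp7, Igfbp5 and Igf1 and for the mean of 6 marker lists, with Pdpn-adjacent regions left of the gap and SMA-adjacent regions right of it. Region 5 is lowest among SMA-adjacent regions for Igfbp4 (4.44) and for the fibroblast list (6.27), and the skeletal muscle list peaks in regions 3 (101) and 7 (43.3).

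Igfbp5 encodes a binding protein that also attaches to extracellular matrix, and lies next to Igfbp2 on chromosome 1, with 5590 bases between the genes (Igfbp2 at 72824480 to 72852474 and Igfbp5 at 72858065 to 72874865, GRCm38.p6). Igfbp5 was 0.952, 3.38, 3.78, 3.49, 4.98 and 0.889 times background in Pdpn-adjacent regions 2, 3, 4, 7, 8 and 11. The SMA-adjacent regions 1, 5, 6, 9 and 10 had 4.51, 2.24, 2.77, 4.58 and 4.16 times background. The Pdpn-adjacent regions thus ran from 0.889 to 4.98 times, lowest in regions 2 and 11, where the count was 1. The SMA-adjacent ones ran from 2.24 to 4.58 times, and region 8 was the highest of all on this scale (edgeR log2 fold change 0.03 ± 0.24, SE; adjusted p = 1.00). The sign depended on the scaling, with -0.03 when libraries were scaled by their negative probes. In the 3 deeper Pdpn-adjacent regions it ran from 3.49 to 4.98 times background, a ratio of 1.43, where Igfbp7 in the same regions spanned a ratio of 3.16. Its neighbour Igfbp2 was above the floor in 0 of 6 Pdpn-adjacent and 0 of 5 SMA-adjacent regions, at 0.887 to 1.88 and 0.856 to 1.02 times background (edgeR log2 fold change 0.11 ± 0.23, SE; adjusted p = 1.00).

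Igfbp3 encodes the main carrier of IGFs in serum. It ran from 0.889 through a median of 1.53 to 3.45 times background in Pdpn-adjacent regions, and was 2.12, 1.03, 1.45, 2.09 and 2.16 times in SMA-adjacent regions 1, 5, 6, 9 and 10. Region 8 was the highest, with 27 counts (exact Poisson 95% interval 2.27 to 5.02 times background), and region 7 also lay just above the SMA-adjacent range at 2.18 times. The log2 fold change was 0.20 ± 0.21 SE (edgeR adjusted p = 1.00).

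Igfbp6, whose protein binds IGF2 more strongly than IGF1, was above the floor in 2 of 6 Pdpn-adjacent and 0 of 5 SMA-adjacent regions. It ran from 0.952 through a median of 1.48 to 3.71 times background in Pdpn-adjacent regions, and was 0.973, 1.29, 1.23, 1.89 and 1.93 times in SMA-adjacent regions 1, 5, 6, 9 and 10. The regions above the floor were 8, with 29 counts (exact Poisson 95% interval 2.48 to 5.32 times background), and 11, with 3 counts (0.550 to 7.80 times). The other 4 Pdpn-adjacent regions lay between 0.952 and 1.50 times, within or just below the SMA-adjacent range (edgeR log2 fold change 0.20 ± 0.22, SE; adjusted p = 1.00). In times background, region 8 was the highest region for Igfbp3, Igfbp5 and Igfbp6, and without it the log2 fold change of Igfbp6 was -0.09. In CPM only Igfbp3 was highest there. Igfbp5 had 130 CPM in region 8 against 136 in region 9 and 134 in region 1. Igfbp6 had 96.3 CPM in region 8 against 103 in region 11, the latter from 3 counts. With limma-voom the fold change of Igfbp6 was 0.92 (adjusted p = 0.132), and without region 4 it was 0.62 (edgeR adjusted p = 0.754). The luminal epithelial marker list was also highest in region 8, at 3.60 times background against 1.04 to 3.19 times in the other 10 regions. So was the lymphatic list, at 1.66 times, and the basal (1.72 times) and macrophage (2.66 times) lists were second highest there. The part of these cell types in the values of region 8 was not tested.

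**Figure D4:**
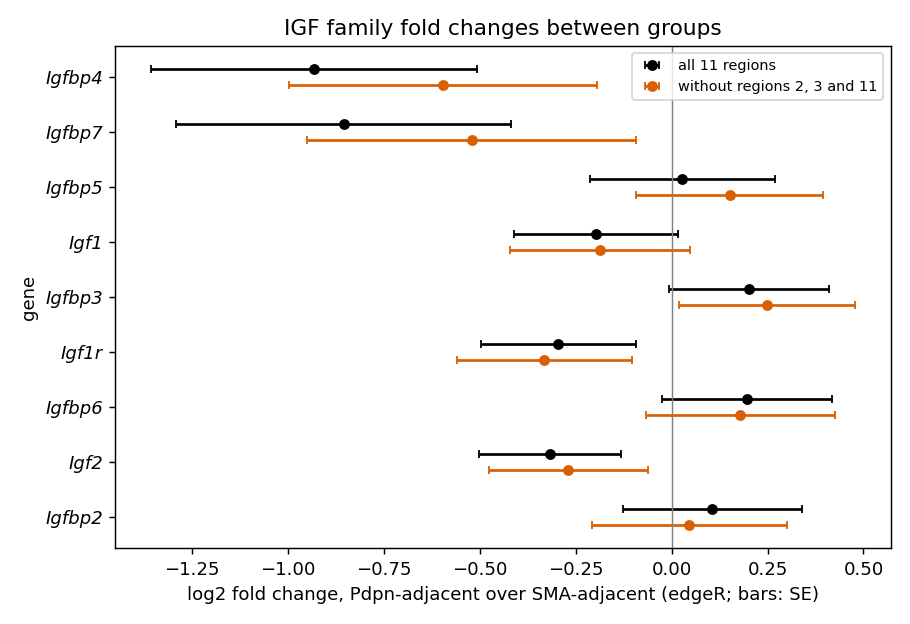
Log2 fold change of each gene, Pdpn-adjacent over SMA-adjacent, with its SE (edgeR), over all 11 regions (black) and without regions 2, 3 and 11 (orange). Igfbp4 (-0.93 and -0.60) and Igfbp7 (-0.85 and -0.52) lie farthest from 0, and no gene passed the adjusted threshold in either fit.

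Of 29 other genes listed in or beside the IGF pathway, 28 had a probe, and edgeR called 0 higher and 0 lower over all probes. At an unadjusted edgeR p under 0.05, 1 was higher (Prlr) and 0 lower. The limma-voom fit also called 0, and DESeq2 called 0 of the 10 for which it gave an adjusted p, with none for the other 18, Prlr, Stc2, Grb10, Pappa and Igf2r among them. Of the 28, 11 had a positive and 17 a negative log2 fold change, with a median of -0.03 against 0.01 over all probes. Prlr, the prolactin receptor, which was on the list but is not itself a gene of IGF signalling, had the smallest p (edgeR log2 fold change 0.88 ± 0.17 SE, adjusted p = 0.0620). Its level was 0.952, 2.25, 2.87, 2.04, 3.19 and 0.889 times background in Pdpn-adjacent regions 2, 3, 4, 7, 8 and 11, and 2.08, 1.26, 1.48, 1.46 and 1.19 times in SMA-adjacent regions 1, 5, 6, 9 and 10. It was highest in regions 4 and 8, which were also the highest for the luminal list (3.19 and 3.60 times background), and without them the log2 fold change was 0.47 (edgeR adjusted p = 0.996). Over the 19 alternatives that gave one, its adjusted p ran from 0.00650 to 0.996 and passed the threshold in 5, namely without Pdpn-adjacent region 7, without SMA-adjacent region 1 or 5, without regions 3 and 7, and with the negative-probe level in the model. The next by p were Stc2, an inhibitor of PAPP-A (0.31 ± 0.17 SE, edgeR adjusted p = 0.897), Grb10, an adaptor that dampens insulin and IGF receptor signalling (-0.33 ± 0.22 SE, 0.928), and the serine protease gene Htra1 (-0.29 ± 0.21 SE, 0.950). Regions with an animal in common can make these p-values too small.

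Of the pathway genes set beside the members, Ghr, the growth hormone receptor, was the strongest. Its level was 1.90 to 10.6 times background (median 3.82) beside Pdpn and 4.40 to 9.59 times (median 7.43) beside SMA. It was above the floor in 5 of 6 and 5 of 5 regions. Among the Pdpn-adjacent ones, regions 2 and 11 passed with only 2 and 4 counts, against floors of 1.50 and 1.98 counts. The insulin receptor gene Insr (0.889 to 3.32 against 2.14 to 3.60 times background) was above the floor in 1 of 6 and 3 of 5 regions, and Igf2r, the clearance receptor for IGF2 (0.889 to 2.25 against 1.10 to 1.62 times), in 0 of 6 and 0 of 5. Pappa, which encodes the protease that cleaves IGFBP4, was above the floor in 0 of 6 Pdpn-adjacent and 0 of 5 SMA-adjacent regions (0.889 to 3.38 against 1.50 to 2.03 times background). Igfbp1, a binding protein made mainly in liver, was likewise above the floor in 0 of 6 and 0 of 5 regions.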

How the data were processed

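The authors deposited 1 table of raw counts, whole numbers per probe and region without normalization, judged from the values. Per the file headers, probes were placed on GRCm38.p6. The assay is described per the labels' protocols. The steps from reads to counts, including removal of duplicate reads, are not given in the sources used here. The lowest value is 1, and whether 1 was added or zeros were raised is not known, so genes at this minimum in shallow regions, all Pdpn-adjacent, stand near background whatever their true level. Negative probes, 0.610% to 0.979% of a region's counts, were kept out of library sizes and tests.

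Probes passing filterByExpr were tested with edgeR 4.0.16 in R 4.3.3 (TMM scaling, quasi-likelihood test, Benjamini-Hochberg adjustment over all probes, threshold 0.05), over all 11 regions. Fold changes are Pdpn-adjacent over SMA-adjacent, CPM uses TMM-adjusted library sizes, and the SE is that implied by the test's p. Deep libraries weigh most in this fit. The exact two-sided permutation test over all 462 splits used log2 times background, weights regions equally, and was adjusted over all 19965 probes. Alternatives changed the filter, scaling, tool (DESeq2 1.42.0, limma-voom with limma 3.58.1), covariate or regions. The edgeR test was checked on simulated counts and the permutation test on simulated normal values, while DESeq2 and limma-voom were not checked in this way. The named genes were all 9 members, 3 label checks and, from the pathway list, those of smallest p and those set beside a member. Genes of like pattern were the 4 of highest Pearson r (log2 CPM, prior count 2) for the 3 members of highest median. Members, lists and alternatives were chosen with earlier results of these data known.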

Additional observations from a re-analysis of the deposited data

Results flagged for a closer look

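Of 18 sets of values (9 genes in each of the 2 groups), 1 held a region far from the others, and chance flags about 1 in 20. Igf2 stood at 2.18 times background in Pdpn-adjacent region 7, where the other 5 Pdpn-adjacent regions lay between 0.375 and 1.02 times. The value rests on 15 counts (exact Poisson 95% interval 1.22 to 3.60 times background) and was below the floor of that region. Without region 7 the log2 difference of Igf2 was -0.83 (exact permutation p = 0.00794, adjusted p = 0.578), against -0.59 (exact permutation p = 0.141) over all 11 regions. Because region 7 was picked by its own Igf2 value, the smaller p is no support for a difference. Regions 2, 3 and 11 held an Igf2 count of 1, and without them the log2 difference was -0.12 (exact permutation p = 0.732). Region 7 also held a skeletal muscle marker level of 43.3 times background, the second highest after region 3 (101 times), and its part in the Igf2 value was not tested.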

How the results depend on the processing

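None of the 9 genes was called in any of 20 alternative fits, of which DESeq2 gave 5 of them no adjusted p, or in 13 alternatives of the permutation test. Igf1, Igfbp4, Igfbp7 and Igfbp3 kept the sign of their log2 fold change in all 20 fits, Igfbp4 between -1.31 and -0.59 and Igfbp7 between -1.20 and -0.52. Igfbp5 changed sign when scaled by negative probes (-0.028), with limma-voom (-0.057) and without regions 4 and 8 (-0.22), and ran from -0.083 to 0.12 when 1 region was left out. Igf2 was 0.18 without regions 4 and 8, Igf1r 0.00030 with limma-voom, Igfbp2 -0.0084 without regions 3 and 7, and Igfbp6, 0.92 with limma-voom (adjusted p = 0.132), ran from -0.088 to 0.62 when 1 region was left out. limma-voom shifted the median of all probes to 0.14. On log2 times background, without regions 2, 3 and 11, the difference of Igfbp3 was 0.42 and that of Igfbp5 0.20, against -0.12 and -0.55 over all regions, and Igfbp3 ran from -0.34 to 0.047 when 1 region was left out. The cause of these changes was not tested.

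The count of probes called, 2 in all, was 1 when scaled by negative probes, 17 with DESeq2, 0 with limma-voom, 44 with background as a covariate, 1 without regions 2, 3 and 11, 13 without regions 4 and 8 and 14 without regions 3 and 7. With 1 region left out it ran from 1 to 53. Omitting region 5 gave 53, omitting region 7 gave 13, and omitting region 2, 3, 9, 10 or 11 gave 1 each. From the pathway list, 1 gene (Prlr, not itself an IGF signalling gene) was called with that covariate and without regions 3 and 7. With 1 region left out, 0 to 1 were called, against 0 over all regions. On log2 CPM the exact permutation p of Igfbp4 was 0.0498 (adjusted p = 0.630). No paired analysis was possible because the labels do not say which animal a region came from. Depth was least in regions 2, 3 and 11, with 9, 44 and 18 counts over the 9 genes. Acta2, above the floor in all 5 SMA-adjacent regions, was also not called by edgeR (adjusted p = 0.205). A missed call, for a gene above or below the floor, therefore does not show that the groups did not differ.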
